A study of Homo sapiens with 2 samples.

Results

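Integrins are the cell surface receptors that hold a cell to its matrix, and laminins, nidogens, perlecan and agrin are the proteins of the basement membrane they hold on to. The genes described here are the protein-coding rows of the count tables named as integrin subunits (ITGA or ITGB), laminin chains (LAMA, LAMB or LAMC), the nidogens NID1 and NID2, the perlecan gene HSPG2 and the agrin gene AGRN. There were 42 of them among 58302 genes, 26 integrin genes and 16 basement membrane genes. They were chosen by name, without use of their values in these libraries, although earlier results on these data were known.

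RNA was sequenced from HK-2 cells, an immortalised human epithelial line of proximal tubule origin, at passages 7 to 11 in medium with 10% serum and 1% antibiotics. Adenovirus had been on the cells for 24 h, carrying either green fluorescent protein (labelled Ad-GFP) or the coding domain of Bmal1 (labelled Ad-Bmal1), a transcription factor of the circadian clock. The labels write the line out as human kidney 2 for the first library but human kidney 3 for the second, and HK-2 was assumed in each case. Both groups therefore carry a viral vector, and the promoter that drives the insert is not given in the sources used here. Each group is 1 library, so nothing below has a replicate check, no test between conditions was possible, and every ratio compares these 2 libraries only.

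The libraries held 20032652 (Ad-GFP) and 20051735 (Ad-Bmal1) counts. BMAL1, which the insert should add to (ENSG00000133794, chromosome 11, 13276652 to 13387266), had 204 counts under the Ad-GFP label and 133 under the Ad-Bmal1 label, a scaled ratio of 0.667 (95% counting interval 0.532 to 0.834). The targeted gene went against the label, so each direction below belongs to a library as labelled, with this limit. Of 6 proximal tubule markers 1 was measured, the brush border enzyme GGT1 with 4473 and 4881 counts. The uptake receptor LRP2 had 0 counts in both libraries, its partner CUBN 8 and 2, the water channel AQP1 4 and 4, the phosphate transporter SLC34A1 1 and 5 and the peptidase ANPEP 19 and 7, so most defining markers of the labelled cell type were at or near 0. The leukocyte marker PTPRC was at 0 in both libraries. Of 5 endothelial markers 1 was measured, the receptor TIE1, with 28 and 7 counts and a ratio of 0.256 (0.0943 to 0.599). TIE1 met the size rule described below as lower. At 1.38 and 0.353 CPM it was measured through the library labelled Ad-GFP alone, so the rule could have called it only as lower. PECAM1 had 3 and 2 counts, CDH5 0 and 3, and VWF and KDR none, and the endothelial list summed to 1.53 CPM under the Ad-GFP label and 0.606 in the other.

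An integrin is a pair of 1 alpha and 1 beta chain, and the alpha chain largely sets which matrix protein is bound. ITGB1 pairs with most alpha chains, ITGAV pairs with several beta chains, and ITGB2 and its partners belong to leukocytes. A laminin is a cross-shaped trimer of an alpha, a beta and a gamma chain, named by the numbers of its chains, so laminin-511 joins the products of LAMA5, LAMB1 and LAMC1. Laminins self-assemble under epithelia, nidogens and perlecan link them to collagen IV, and agrin and perlecan carry heparan sulfate. In the tubule this layer separates the epithelium from the interstitium.

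A gene was taken as measured if it reached 1 CPM (the count relative to the scaled library size) in at least 1 library, which was worth 20.3 counts under the Ad-GFP label and 19.8 in the other. Of the 42 genes 32 were measured, 18 integrins and 14 basement membrane genes. The remaining 10 had at most 6 counts in all. ITGA9 had 6 and 0 counts, ITGAM 4 and 1, ITGA10 2 and 0, ITGAD and ITGB7 1 and 0 each, and ITGAL and LAMA4 0 and 2 each. ITGA8, ITGA11 and LAMB4 had none. A count of 0 allows up to 3 counts, or 0.148 CPM (Ad-GFP label) and 0.151 CPM (Ad-Bmal1 label). ITGA8, ITGA11 and LAMB4 were therefore not detectable at this depth. The others had a few counts, and ITGA9 (0.296 CPM) and ITGAM (0.197 CPM) stood above that floor under the Ad-GFP label. ITGAL, ITGAM, ITGAD and ITGB7 are leukocyte integrin genes, and ITGA8 is known from mesenchymal cells of the kidney.

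The library labelled Ad-Bmal1 had the higher level of most basement membrane genes, and the integrins were split. Of 14 measured basement membrane genes 12 had a ratio above 1, and the median log2 ratio was 0.36. Of 18 measured integrins 8 had a ratio above 1 and 10 below, with a median of -0.06. Over all 13231 measured genes the median was 0.00. In bulk RNA, fewer cells expressing a gene and less RNA per cell cannot be told apart. These medians describe the lists and are no test of them. Of 6 fibroblast and smooth muscle markers 2 were measured, COL1A1 with 1285 and 1681 counts and PDGFRB with 16 and 20. COL1A2, COL3A1, ACTA2 and DES had at most 5 counts in either library, and the list summed to 64.8 CPM under the Ad-GFP label and 86.5 under the other. The part of such cells in the ratios was not tested.

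By the size rule, a difference of at least 2-fold with a 95% counting interval that excludes 1, 2 members were higher and 1 was lower under the Ad-Bmal1 label. HSPG2 and NID2 were the higher members and ITGA2 the lower one. ITGA2 was measured through the library labelled Ad-GFP alone, so the rule could have called it only as lower. Among all measured genes 1.13% were higher and 1.74% lower by that rule. At 1.5-fold, LAMA5, ITGB3 and LAMA1 joined the higher members to make 5, against 4.41% of all measured genes, and the lower member was again ITGA2, against 4.90%. Intervals of 17 members lay above 1 and 7 below, while 23.8% and 21.6% of all measured genes had such intervals. With the length trend described further on removed, 12 members had intervals above 1 and 10 below. Integrins then had 3 above and 8 below, against 5 and 6 before that step. Basement membrane genes had 9 and 2, against 12 and 1. Scaled to total counts, the intervals of LAMB2 and ITGAE included 1 and that of ITGB4 lay below it, for 15 above and 8 below. The 23.8% and 21.6% of all measured genes are without either change, so they are no like share for these counts.

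Deep genes have narrow intervals, so that share depends on the count. Of the 19 members with 1000 or more counts in all, 14 had an interval above 1 and 4 below. Among all genes of that depth, 37.2% lay above and 27.6% below. The 7 integrins of that depth had 3 above, 3 below and 1 that included 1. These intervals cover counting error only, and the spread between cultures is unknown.

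**Figure D1:**
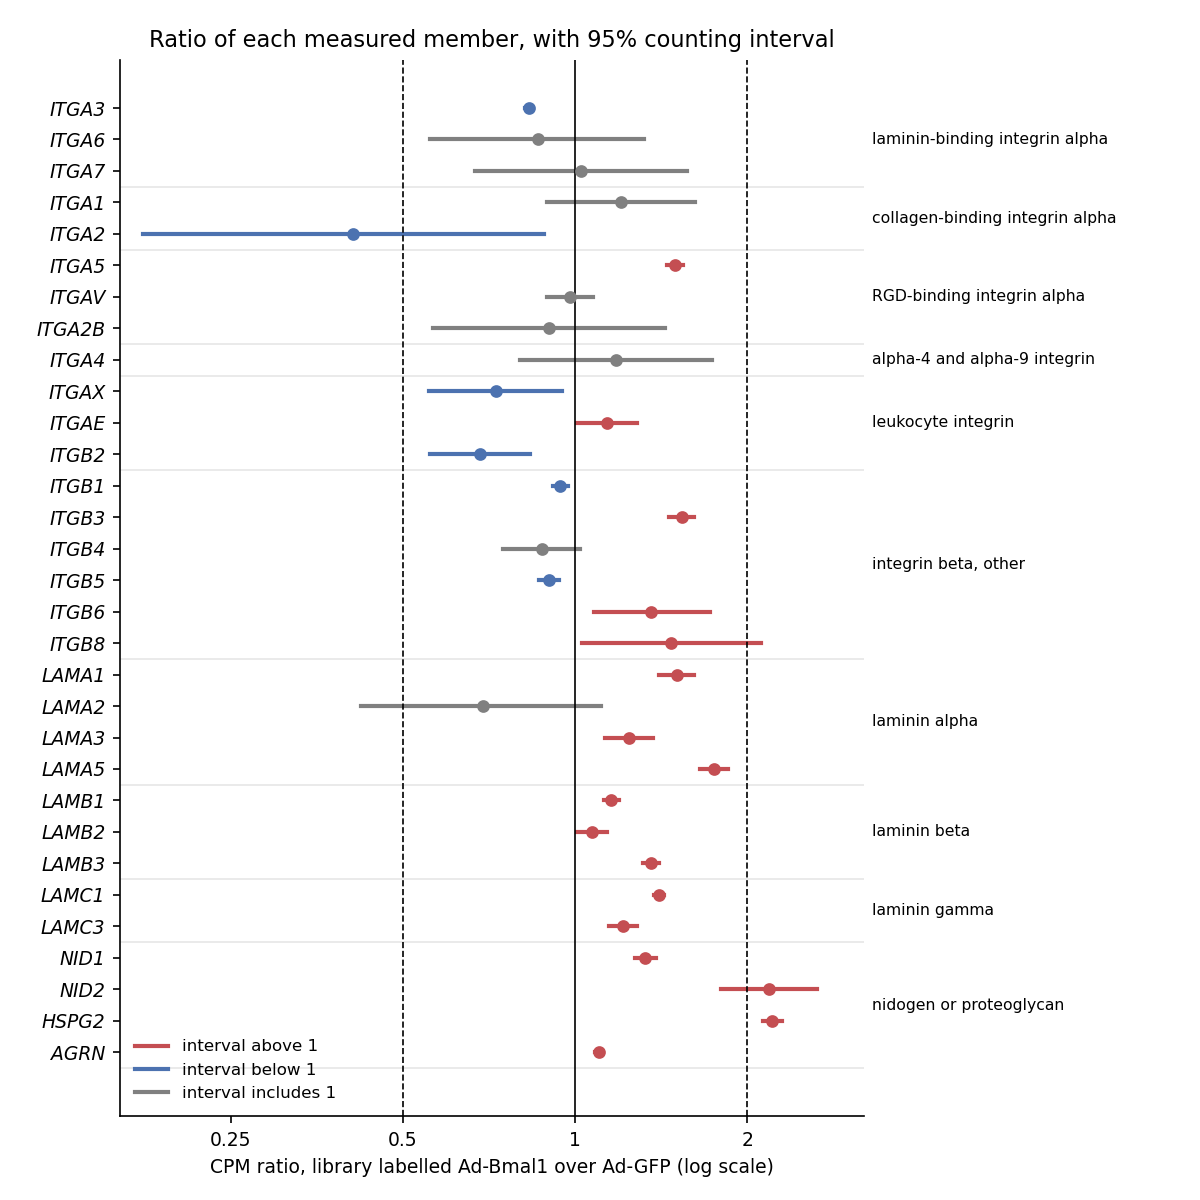
Ratio of scaled CPM, Ad-Bmal1 label over Ad-GFP label (log axis), for 31 measured members, with the 95% counting interval as a bar (red above 1, blue below 1, grey where it includes 1) and dashed lines at 2-fold either way. HSPG2 and NID2 lie above 2-fold, ITGA2 below, and 12 of the 13 basement membrane genes shown lie to the right of 1.

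Perlecan and nidogen-2 had the largest ratios of the measured members. HSPG2 (ENSG00000142798, chromosome 1, 21822245 to 21937297, GRCh38) encodes the large heparan sulfate proteoglycan that bridges laminin, nidogen and collagen IV and holds growth factors. The library labelled Ad-GFP had 3616 counts of it (178 CPM) and the library labelled Ad-Bmal1 7820 (395 CPM). The ratio was 2.21 (interval 2.13 to 2.30). Its longest coding transcript has 14327 bases, the longest of all members, and the ratio was 1.86 once the trend of ratio on transcript length was removed (described further on), outside the size rule and below the 2.11 of NID2. A gene on the opposite strand, LDLRAD2, shares 2121 of its exonic bases and had 1 count in each library.

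The sequence before the HSPG2 start site is shown because it belongs to 1 of the 2 higher members past 2-fold. It also holds GC boxes (GGGCGG or CCGCCC, the site of SP1-type factors). Such boxes were in 61.1% of the members' RefSeq promoter windows, against 45.0% of all such windows. The stretch shown is the 152 bases before the RefSeq start (chr1:21937311-21937462, GRCh38.p14, minus strand, written 5′ to 3′). Capitals mark 8 GC boxes, some of which overlap.
HSPG2: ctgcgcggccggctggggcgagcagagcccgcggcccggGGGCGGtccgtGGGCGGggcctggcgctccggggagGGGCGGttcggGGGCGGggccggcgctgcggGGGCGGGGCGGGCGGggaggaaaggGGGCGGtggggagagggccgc

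NID2 was the other basement membrane gene past 2-fold, from a far lower level. NID2 (ENSG00000087303, chromosome 14, 52004803 to 52069228) encodes nidogen-2, a linker between laminin and collagen IV. The library labelled Ad-GFP had 158 counts of it (7.79 CPM) and the library labelled Ad-Bmal1 337 (17.0 CPM). For every other member the value of the library labelled Ad-GFP is likewise given first. The ratio was 2.18 (1.80 to 2.65), and 2.11 with the length trend removed. Of its exonic bases 30% are shared with RTRAF on the opposite strand, which had 1759 and 1562 counts. Whether the counting used strand is not given in the sources used here. The part of RTRAF reads in NID2 was not tested.

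The paralog NID1 was more abundant and differed less. NID1, which encodes nidogen-1, had 3766 and 4884 counts, a ratio of 1.33 (1.27 to 1.39). Per kilobase of longest coding transcript its level was 19.6 times that of NID2 under the Ad-GFP label and 11.9 times in the other. The ratio of NID2 exceeded that of NID1 by a factor of 1.65 (counting interval 1.36 to 2.00), a quantity in which the scaling cancels.

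Agrin was more abundant than perlecan and nearly level. AGRN, which encodes the heparan sulfate proteoglycan agrin, known for clustering receptors at the nerve-muscle synapse and as a basement membrane component in kidney, had 32926 and 35378 counts. The ratio was 1.10 (1.08 to 1.12), and 0.989 with the length trend removed, on the other side of 1. Its level per kilobase was 17.6 times that of HSPG2 under the Ad-GFP label and 8.77 times in the other. The ratio of HSPG2 exceeded that of AGRN by a factor of 2.01 (1.93 to 2.10), with the length trend not removed.

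Among the laminin alpha chains, which carry the main receptor-binding domains, 3 of 4 measured genes had intervals above 1. LAMA5 (ENSG00000130702, chromosome 20, 62307955 to 62367312), the alpha chain of laminin-511 and laminin-521 and the chain of the mature glomerular and tubular membrane, had 1995 and 3412 counts. The ratio was 1.75 (1.66 to 1.85), the largest of the laminins. Its exons share 244 bases with ADRM1 on the opposite strand (4392 and 4509 counts), whose part in the ratio was not tested. LAMA1, the alpha chain of laminin-111, which is prominent in embryonic kidney, had 1352 and 1988 counts with a ratio of 1.51 (1.40 to 1.61). With the length trend removed these ratios were 1.499 and 1.31.

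The other alpha chains differed less or in the other direction. LAMA3, an alpha chain of epithelia such as skin, had 778 and 945 counts with a ratio of 1.24 (1.13 to 1.37), and 1.07 with the length trend removed. LAMA2, the alpha chain of muscle laminin-211, had 46 and 31 counts, and its ratio of 0.690 had an interval that included 1 (0.423 to 1.11). LAMA4, the chain of laminin-411 in vessels, was not detectable beyond 2 counts. The summed counts of the 5 alpha chain genes were 4171 and 6378, a ratio of 1.57 (1.504 to 1.63).

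The 152 bases before the LAMA5 start are shown as the laminin gene with the largest ratio (chr20:62367313-62367464, GRCh38.p14, minus strand). Capitals mark 5 GC boxes.
LAMA5: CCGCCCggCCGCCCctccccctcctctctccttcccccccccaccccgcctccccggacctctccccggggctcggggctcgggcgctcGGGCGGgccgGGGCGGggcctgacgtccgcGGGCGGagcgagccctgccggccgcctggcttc

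All 3 measured laminin beta genes had ratios above 1, with the narrowest margin for LAMB2. LAMB3, a beta chain of the same epithelia as LAMA3, had 6607 and 8755 counts with a ratio of 1.36 (1.31 to 1.40). LAMB1, the widespread beta chain, had 7412 and 8384 counts with a ratio of 1.16 (1.12 to 1.19). LAMB2, the beta chain of the mature glomerular membrane, had 2056 and 2151 counts with a ratio of 1.07 (1.01 to 1.14), which 3 of 5 other scalings left with an interval that included 1. After removal of the length trend LAMB2 was at 1.01 and LAMB1 at 1.09.

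LAMC1 (ENSG00000135862, chromosome 1, 183023460 to 183145592), the gamma chain of most laminins, had 15785 and 21612 counts with a ratio of 1.40 (1.37 to 1.43), and 1.25 with the length trend removed. LAMC3, a gamma chain of few tissues, had 2235 and 2649 counts and a ratio of 1.21 (1.15 to 1.28).

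Chains of one trimer did not share one ratio. In laminin-511 LAMA5 and LAMC1 exceeded LAMB1 by factors of 1.51 (1.42 to 1.61) and 1.21 (1.17 to 1.26). In laminin-111 LAMA1 exceeded LAMB1 by 1.30 (1.21 to 1.40). The length trend is not removed from these factors. With it removed the ratios lay closer, at 1.499 for LAMA5, 1.25 for LAMC1, 1.31 for LAMA1 and 1.09 for LAMB1.

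Levels per kilobase were far from equal within a trimer. LAMC1 (98.7 and 138 CPM per kilobase) and LAMB1 (63.4 and 73.4) stood above their alpha partners LAMA5 (8.61 and 15.1) and LAMA1 (6.91 and 10.4). LAMB2, the beta chain of laminin-521, stood at 17.9 and 19.1. LAMC1 was 11.5 times the level of LAMA5 under the Ad-GFP label and 9.17 times in the other. LAMB3 stood at 75.7 and 103, and LAMA3 at 3.60 and 4.47.

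The level of LAMA3 depends on the transcript assumed. GENCODE lists coding transcripts of LAMA3 of 10661 and 5671 bases among others, with starts at 23689443 and 23872840 on chromosome 18, and gene counts cannot tell them apart. With the shorter one the level was 6.77 and 8.41 CPM per kilobase. LAMB3 then exceeded LAMA3 by 11.2 and 12.2 times in place of 21.0 and 22.9 times.

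**Figure D2:**
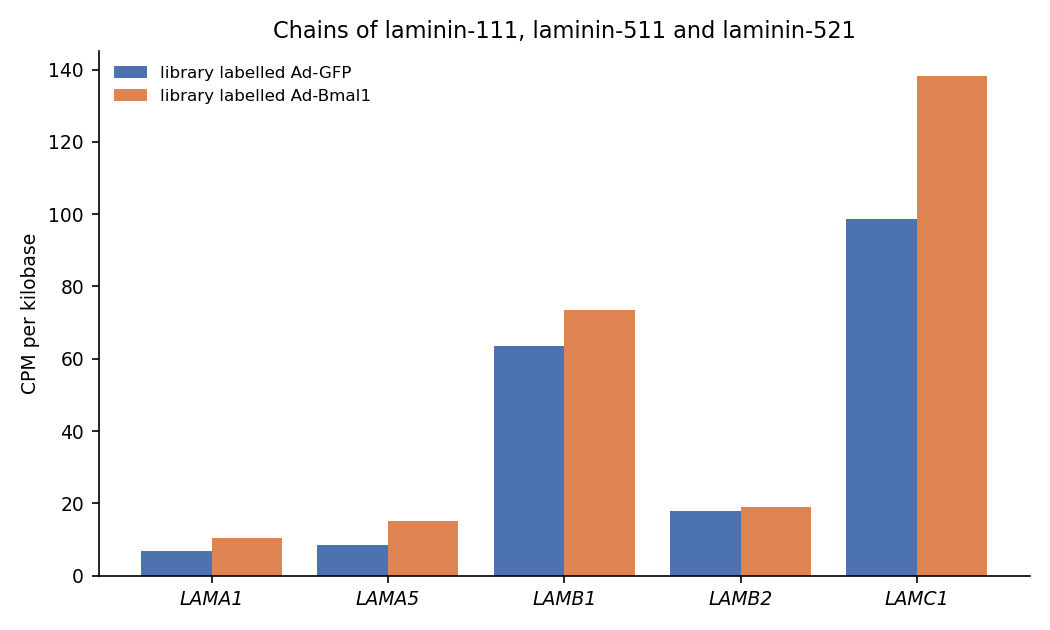
CPM per kilobase of the longest coding transcript (linear axis from 0) for the chains of laminin-111, laminin-511 and laminin-521, 1 library per bar and no error bar. LAMC1 stood at 98.7 and 138, and the alpha chains LAMA1 and LAMA5 were the lowest of the 5 in both libraries.

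AP-1 sites (TGACTCA or TGAGTCA, bound by FOS and JUN factors) lay in RefSeq promoter windows of 3 members, LAMA3, LAMB3 and ITGA5. The stretches around them are shown because these are matrix and receptor genes with intervals above 1, and capitals mark the site. All are on GRCh38.p14. The LAMA3 stretches are chr18:23872883-23872912 and chr18:23872939-23872968 on the plus strand, before a RefSeq start and within the exons of GENCODE's short transcript. The LAMB3 stretch is chr1:209651424-209651453 and the ITGA5 stretch chr12:54419255-54419284, both on the minus strand, and the ITGA5 stretch spans the start site.
LAMA3, first: tctggcacaggcTGACTCAtgtgtgaagtt
LAMA3, second: gccttcctcaccTGAGTCAggcaggcccgg
LAMB3: cgtcagccactcTGACTCAttcactttggg
ITGA5: tcctccccgcgtTGAGTCAttcgcctctgg

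The AP-1 site was in 8.33% of the 36 windows of members and in 4.95% of all 35116 windows of the same length. A match is a description of letters and not evidence that a factor is bound.

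The E-box CACGTG, the site that BMAL1 and CLOCK bind, lay in 1 of the 36 windows, that of ITGA6. This is 2.78% of the members' windows, while 7.26% of all windows held it. The related CACGTT (or AACGTG) was in none, against 5.34% of all. The ITGA6 stretch is chr2:172427223-172427251, GRCh38.p14, plus strand, shown because it holds the single E-box match.
ITGA6: cgtatgcatctgCACGTGggcccacatct

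ITGA6 itself was a low gene whose interval included 1 (below). GC boxes were in 61.1% of the members' windows and 45.0% of all, and in windows of 17 of the 29 members that had any window. Some windows of the same gene overlap, so the same box can count more than once. The windows run from 250 bases before to 50 after a start, so these letters elsewhere near a gene were not looked for.

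Among integrins the library labelled Ad-Bmal1 held more of the fibronectin receptor chain ITGA5 and the beta chain ITGB3, and the main laminin receptor chain ITGA3 was lower. ITGA3 (ENSG00000005884, chromosome 17, 50055968 to 50090481), which with ITGB1 binds laminins such as laminin-511, had 33313 and 27064 counts. Its ratio was 0.831 (0.818 to 0.845), and 0.802 with the length trend removed. ITGA3 was nevertheless the most abundant integrin in both libraries, at 336 and 279 CPM per kilobase.

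ITGA5 (ENSG00000161638, chromosome 12, 54395261 to 54419460) encodes the alpha chain of the classical fibronectin receptor. Its counts were 5929 and 8671, for a ratio of 1.496 (1.45 to 1.55). Relative to ITGA3 it had a ratio higher by a factor of 1.80 (1.74 to 1.87). ITGA3 made up 80.1% of the summed level per kilobase of all alpha chains under the Ad-GFP label and 70.6% in the other, and ITGA5 15.7% and 24.9%.

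The common partner ITGB1 was close to level. ITGB1 had 8323 and 7665 counts with a ratio of 0.942 (0.913 to 0.972). ITGA3 stood at 3.10 times the level of ITGB1 per kilobase under the Ad-GFP label and 2.73 times in the other, and ITGA5 at 0.607 and 0.963 times. ITGA5 exceeded ITGB1 in ratio by a factor of 1.59 (1.52 to 1.66).

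Among the beta partners of ITGAV, ITGB3, ITGB6 and ITGB8 had intervals above 1, while those of ITGB5 and of the common partner ITGB1 lay below. ITGAV binds RGD motifs in vitronectin and fibronectin and takes part in activating latent TGF-beta. It had 950 and 910 counts, and its ratio of 0.980 had an interval that included 1 (0.894 to 1.08). With the length trend removed the ratio of ITGAV was 0.889 and the interval lay below 1. ITGB3 (ENSG00000259207, chromosome 17, 47253846 to 47311816), best known from platelets, had 2660 and 3992 counts with a ratio of 1.54 (1.46 to 1.61). ITGB5, the vitronectin receptor chain of many epithelia, had 5332 and 4695 counts with a ratio of 0.901 (0.866 to 0.937). ITGB3 therefore exceeded ITGB5 in ratio by a factor of 1.70 (1.60 to 1.82), and its level per kilobase was 0.546 of that of ITGB5 under the Ad-GFP label and 0.931 in the other. ITGB3 shares 2266 bases, 51.6% of its exonic bases, with a protein-coding gene on its own strand that had 0 counts in both libraries. How shared reads were counted is not known, so the level of ITGB3 is uncertain.

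The ITGAV partners ITGB6 and ITGB8 were low in both libraries. ITGB6, a chain induced in injured epithelium, had 131 and 174 counts with a ratio of 1.36 (1.08 to 1.72). ITGB8 had 55 and 79 counts with a ratio of 1.47 (1.03 to 2.11). Both intervals lay above 1 although the counts were small. With the length trend removed ITGB6 stood at 1.32 with its interval still above 1. ITGB8 then stood at 1.29 with an interval that included 1. ITGA2B, the platelet partner of ITGB3, had 42 and 37 counts and a ratio of 0.901 (0.563 to 1.44).

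Other laminin receptor chains were scarce. ITGB4, the hemidesmosome chain, had 356 and 304 counts with a ratio of 0.874 (0.747 to 1.02). Its partner ITGA6 had 50 and 42 counts with a ratio of 0.860 (0.556 to 1.32). ITGA7, a muscle laminin receptor chain, had 47 in both, a ratio of 1.02 (0.668 to 1.57). None of these 3 intervals excluded 1. With the length trend removed the ratio of ITGB4 was 0.819, with an interval below 1. Per kilobase, ITGA3 stood at 766 times the level of ITGA6 under the Ad-GFP label and 741 times in the other.

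Of the collagen receptor chains ITGA2 was lower and ITGA1 was not separable from 1. ITGA2 (ENSG00000164171, chromosome 5, 52989326 to 53094779) had 25 and 10 counts, 1.23 and 0.505 CPM, so it was measured through the library labelled Ad-GFP alone. The size rule could therefore have called ITGA2 only as lower. The library labelled Ad-Bmal1 had a 2.44-fold lower level, with a wide interval (1.13 to 5.70). ITGA1, its neighbour with 30.1 kb between them, had 86 and 101 counts and a ratio of 1.20 (0.892 to 1.62). ITGA1 shares 475 exonic bases with PELO on its own strand, which had 909 and 874 counts, so its value is uncertain. ITGA4, a receptor chain for VCAM1 and fibronectin, had 53 and 61 counts and a ratio of 1.18 (0.802 to 1.74).

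Of the measured leukocyte-type integrin genes ITGAE had the highest level, at 6.5 and 7.39 CPM per kilobase. ITGB2 stood at 3.82 and 2.6 and ITGAX at 1.45 and 1.05. ITGB2, the common beta chain of leukocyte integrins, had 246 and 164 counts with a ratio of 0.682 (0.556 to 0.835). ITGAX, a partner of ITGB2 in myeloid cells, had 138 and 98 counts with a ratio of 0.727 (0.555 to 0.948). ITGAE, known from lymphocytes that sit in epithelium, had 508 and 565 counts with a ratio of 1.14 (1.01 to 1.28), while its beta partner ITGB7 had 1 and 0. With the length trend removed the ratio of ITGAE was 1.12 and the interval included 1. Of the 5 blood cell markers, CSF1R had 433 and 407 counts, CD14 2 in each library, and PTPRC, CD68 and HBB 0 in both, while the sum was 21.5 CPM under the Ad-GFP label and 20.6 in the other. ITGAE shares 427 exonic bases with HASPIN on the opposite strand (423 and 412 counts) and ITGB2 303 with ITGB2-AS1 (23 and 9), and the part of these in the ratios was not tested.

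**Figure D3:**
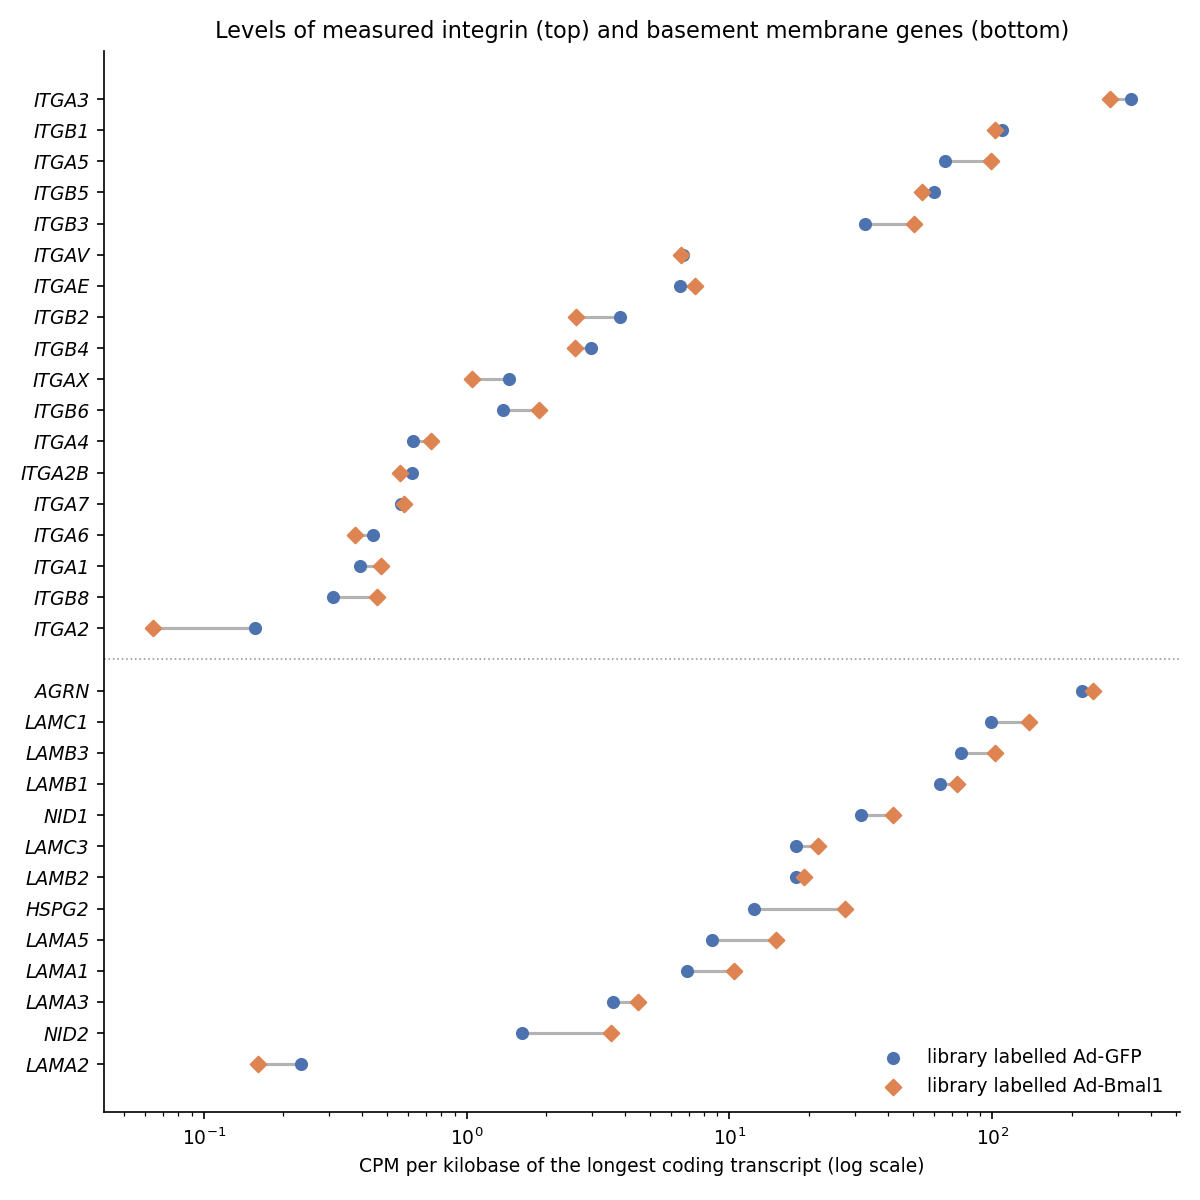
CPM per kilobase of the longest coding transcript (log axis) for the 18 measured integrins above and 13 basement membrane genes below the dotted line, with 1 point per library. Of the genes shown ITGA3 and AGRN are the highest in both libraries, and the order of genes is nearly the same in both.

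The order of levels was alike in both libraries. Per kilobase ITGA3 and AGRN were among the highest members in both, at places 207 and 330 of 13217 measured genes with a transcript length in the library labelled Ad-GFP and 244 and 287 in the other. Spearman's rho of the levels was 0.994 over the 32 measured members, a description across genes. They were followed by ITGB1, LAMC1, LAMB3 and ITGA5 in the library labelled Ad-GFP and by LAMC1, LAMB3, ITGB1 and ITGA5 in the other. The lowest measured members were ITGA2 and LAMA2 in both. With 1 library per group, which neighbours differ beyond the spread of cultures is unknown.

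As sums, integrin genes took 58258 counts, 0.291% of all (exact 95% interval 0.289 to 0.293), in the library labelled Ad-GFP and 54682, 0.273% (0.270 to 0.275), in the other. Basement membrane genes took 130897 counts, 0.653% (0.650 to 0.657), and 146519, 0.731% (0.727 to 0.734). The summed alpha chains had a ratio of 0.935 (0.922 to 0.948) and the summed beta chains 1.02 (0.9999 to 1.04), and both sums are weighted to a few genes.

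Long transcripts had higher ratios across the whole transcriptome, and basement membrane genes are long. Among all measured genes the median log2 ratio was -0.08 for transcripts under 1500 bases and 0.20 for those of 8000 bases or more, where 72.7% of 998 genes had a ratio above 1. The measured basement membrane genes had a median length of 6764 bases and the integrins of 4560, against 3227 for all measured genes. Of the 7 members of 8000 bases or more, 6 had a ratio above 1, with a median of 0.56. With the trend removed, the median of the basement membrane genes was 0.25 and 11 of 14 had a ratio above 1, and the median of the integrins was -0.13 with 8 of 18 above 1.

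Across the 32 measured members Spearman's rho of log2 ratio with length was 0.28, against 0.24 over all 13217 genes with counts in both libraries. Across the 14 basement membrane genes it was 0.26, and across the 18 integrins -0.01. These are descriptions across genes that share 2 libraries.

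**Figure D4:**
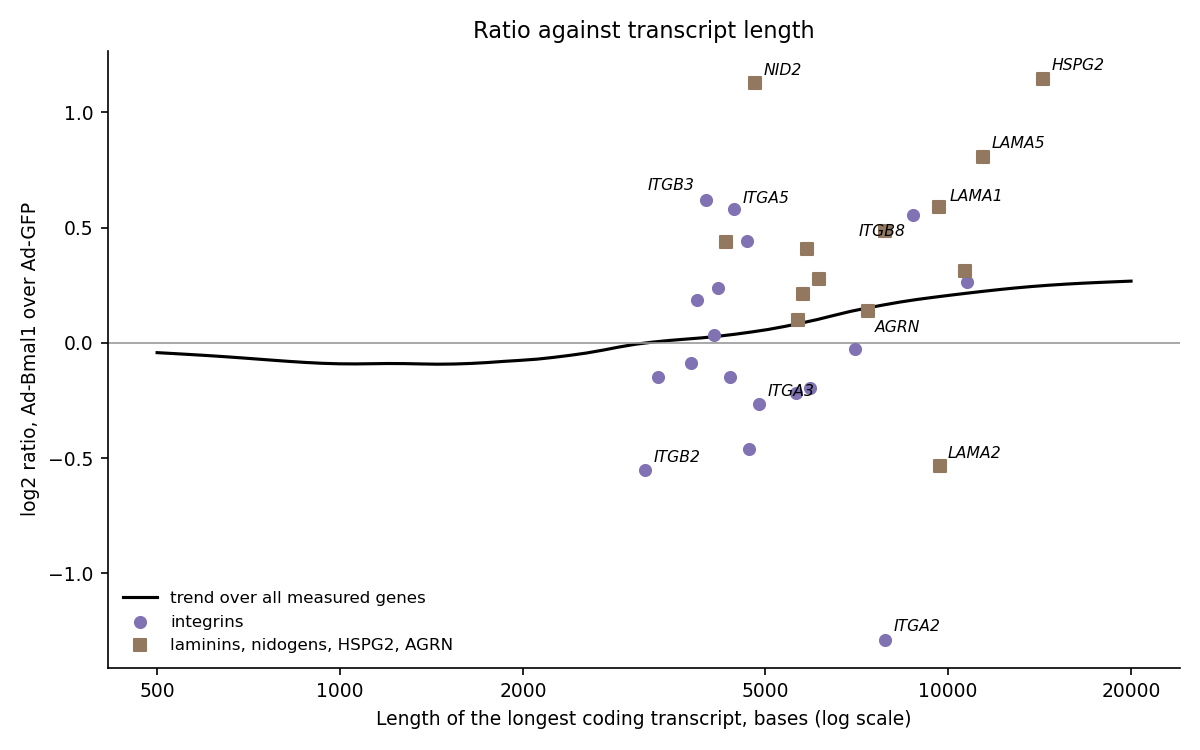
Log2 ratio, library labelled Ad-Bmal1 over Ad-GFP, against the length of the longest coding transcript (log axis) for 31 measured members, with the trend over all measured genes as a line. Most basement membrane genes lie above the line, LAMA2 below it and AGRN almost on it.

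Measured activators and adaptors of integrins mostly had ratios above 1, all of these under 2-fold. Of the 34 names listed 33 matched a gene, and 32 of these genes were measured. Among the 32, 17 had intervals above 1 and 7 below, with a median log2 ratio of 0.13, and 0.04 with the length trend removed. None met the size rule as higher and 2 as lower. Among all measured genes 23.8% had intervals above 1 and 21.6% below, and 1.13% and 1.74% met that rule as higher and lower. For genes with 1000 or more counts in all, 37.2% lay above and 27.6% below. PTK2B, a focal adhesion-type kinase, had 437 and 197 counts and was 2.17-fold lower (ratio 0.461, 0.388 to 0.547). FERMT3, the kindlin of blood cells, had 47 and 20 counts and was 2.30-fold lower (ratio 0.435, 0.244 to 0.749). FLNA, the actin crosslinker filamin A and the most abundant of the list, was named after its values were seen and had 136639 and 179729 counts with a ratio of 1.35 (1.34 to 1.36). With the length trend removed the ratio of FLNA was 1.19.

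The other matrix ligands and receptors on the lists were mixed. Of 16 measured ligands of 24 listed, 9 had intervals above 1 and 4 below, and none met the size rule. Beside these and the receptors below stand the 23.8% and 21.6% of all measured genes, and 37.2% and 27.6% at 1000 or more counts. FN1, the ligand of the ITGA5 and ITGB1 pair, had a ratio of 1.65 (1.64 to 1.65) and COL4A2, a chain of the collagen IV network, one of 1.26 (1.24 to 1.28). SPP1, an RGD ligand, had a ratio of 0.878 (0.865 to 0.891). With the length trend removed FN1 stood at 1.44, COL4A2 at 1.16 and SPP1 at 0.935. Of 16 measured non-integrin laminin receptors and hemidesmosome genes of 17 listed, 6 had intervals above 1 and 4 below, with a median of 0.04 and none past the size rule. RPSA, a ribosomal protein also described as a laminin receptor, had a ratio of 0.959 (0.945 to 0.973), and on the other side of 1, at 1.02, with the length trend removed. CD63, a tetraspanin, had 1.03 (1.01 to 1.05) and PLEC, the hemidesmosome linker plectin, 1.36 (1.33 to 1.39). With the length trend removed CD63 stood at 1.10 and PLEC at 1.14.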

How the data were processed

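Raw whole-number counts per Ensembl gene were deposited by the authors, 1 library per file. Per the labels' protocols, polyadenylated RNA was read as paired 150 bp ends. HISAT2 and GRCh38 (hg38) are named in the submitters' processing notes. How the counting was done, with what strand setting and annotation, is not given in the sources used here.

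GENCODE v29 supplied symbols, gene types, GRCh38 coordinates and transcript lengths for 99.5% of identifiers. RefSeq (GRCh38.p14) supplied promoter windows for 29 of the 42 members. TMM factors from edgeR 4.0.16 (R 4.3.3) were 1.01 for Ad-GFP and 0.988 for Ad-Bmal1. Python 3.11.15 with scipy 1.17.1, pandas 2.3.3, numpy 2.4.6, statsmodels 0.14.6 and matplotlib 3.10.9 did the rest. With 1 library per group no test was made. Each ratio has an exact conditional binomial interval (Clopper-Pearson, 95%). It covers counting error only, as do the floors, and without molecular identifiers 2 reads may stem from 1 molecule. Levels of different genes are set side by side as CPM per kilobase of the longest coding transcript. The length trend was a lowess (fraction 0.3) of log2 ratio on log2 length over all measured genes. The scaling, the intervals and the size rule were tested on simulated counts that held counting error only. Spread between cultures and a length trend were not simulated, so the simulation cannot check the intervals beyond counting error. Trend removal, levels per kilobase and promoter matches were not simulated.

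The members and lists were chosen with earlier results of these data known. Every measured member is named with its values except 1 that is not reported here and is in no figure, though counts, medians and sums over members include it, and of each related list of pathway genes up to 3 genes, those meeting the size rule or otherwise those of highest mean count. The motifs other than CACGTG were chosen after values were seen. As alternatives, counts were scaled by their totals, by DESeq2 1.42.0, by upper quartiles, without mitochondrial and the 20 most abundant genes, or on protein-coding genes. Others were no minimum level, 10 CPM, removal of the length trend, a prior count of 2, sizes of 1.5-fold and 4-fold, and an interval wholly beyond 2-fold.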

Additional observations from a re-analysis of the deposited data

How the results depend on the processing

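The median log2 ratio of the integrins (-0.06) kept its sign under each of the 9 other scalings, minimum levels and corrections, and so did that of the basement membrane genes (0.36), which moved most, to 0.25, with the trend on transcript length removed. The count of higher members, 2, fell to 1 with that trend removed (NID2), rose to 5 at 1.5-fold, and was 0 at 4-fold and 1 where the interval had to lie wholly beyond 2-fold (HSPG2). The count of lower members, 1, was 0 with 10 CPM required, where ITGA2 is not measured, 0 at 4-fold and 0 with an interval wholly beyond 2-fold. Each of these settings makes the rule stricter or looser by construction, apart from the length trend, for which the cause was not tested. Among single members with an interval that excluded 1, AGRN reversed, from 0.14 to -0.015 on the log2 scale, with the length trend removed. Other scalings moved log2 ratios by at most -0.03. No paired analysis was possible because each group has 1 library, and for the same reason no library could be left out. The 7 measured members under 100 counts in both libraries are limited by depth.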
